A study of Mus musculus with 2 samples.

Results

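White and brown adipocyte genes are a set of 32 genes that mark fat cells, and they were read on 2 arrays of newborn mouse skin. A gene belonged to the set if it was on a fixed list of adipocyte genes and the array files gave its name to at least 1 probe outside the controls. All 32 were found, on 41 probes, out of 24288 named genes on the arrays. The groups were skin of Pla2g4e-/- knockout (KO) mice and skin of Pla2g4e+/+ wild-type (WT) mice, both of the strain C57BL/6N at postnatal day 0, with no treatment named. Each group was 1 array, and its RNA was a pool in equal parts from 5 animals, so the spread between animals cannot be seen and no test was run. Pla2g4e encodes a cytosolic phospholipase A2, and the title of the series links it to N-acylethanolamine lipids and psoriatic inflammation.

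Fat cells store triglyceride in droplets coated by perilipins and release hormones such as adiponectin and leptin. In mice, white adipocytes form beneath the dermis around birth. Brown adipocytes, which lie in a depot under the skin of the back, share the PPARγ-driven adipogenic programme and add mitochondria that burn fuel for heat through uncoupling protein 1. Here the set was divided by textbook role into 4 secreted products with a white leaning, 17 genes shared by both kinds of adipocyte and 10 brown genes. Lipf, a gastric lipase that is no textbook adipocyte gene, stands apart from the classes.

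The arrays were of like brightness. The median probe signal was 216 in the KO pool and 223 in the WT pool, and 80.8% of probes were well above background in the KO pool, against 78.0% in the WT pool. Signals given below are unscaled. Differences are on the log2 scale after each array was divided by its own 75th percentile, as KO minus WT. By the error model of the scanner software, the error of such a difference was 0.20 at the median. It covers spots only and leaves out the animals. Over the measured members it ran only from 0.204 to 0.217. A cut in scanner errors is thus close to a fixed cut on the difference, and not a precision measured for each gene. The probe for Pla2g4e read 320 in the KO pool and 662 in the WT pool, so its RNA was still measured in the KO pool. Which part was deleted is not stated here, so that signal does not check the genotype if the probe lies outside it. Y-linked Ddx3y read 2.36 in the KO pool and 2893 in the WT pool, and Xist read 2889 in the KO pool and 796 in the WT pool, so the sex of the animals and the genotype cannot be told apart in any difference given here. Markers of keratinocytes were well above background on both arrays for 9 of 10 listed genes, as befits the label of skin, and Flg had no probe.

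Past 1.5-fold, the white-leaning and shared classes held lower genes only, 2 of 3 and 3 of 17, and the brown class held 1 higher gene of 9. Of the 32 members, 30 were well above background on both arrays, and their median difference was -0.10, against 0.01 over all 19397 genes measured. At least 1.5-fold lower in the KO pool were 5 of the 30 (16.7%), namely Gpd1, Plin1, Agpat2, Adipoq and Retn, where 4.49% of all genes were. At least 1.5-fold higher was Ppargc1a alone (3.33%), where 6.73% of all genes were. Without scaling, 6.12% of all genes were lower by that size and 5.16% higher. Members at least 1.5-fold apart in either direction thus numbered 6, where 11.2% of all genes were. By 2-fold, Gpd1 and Plin1 were the 2 members lower, where 1.44% of all genes were, and 0 were higher, where 2.23% were, against 3.67% in either direction. Above 0 were 12 of the 30 members, where 51.8% of all genes were, and below 0 were 18, where 48.2% were. Set against the scanner's error of each difference, 8 members were lower and 5 higher by more than 2 errors, and 12 lay within 1 error of 0. The shares of all genes at these cuts were not counted, so these numbers are no result about the members. Just past 1.5-fold was Retn, 1.54-fold lower, and just short of it were Ucp1, 1.497-fold higher, and Adrb3, 1.49-fold lower. In whole skin, fewer adipocytes and less RNA per adipocyte cannot be told apart.

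**Figure D1:**
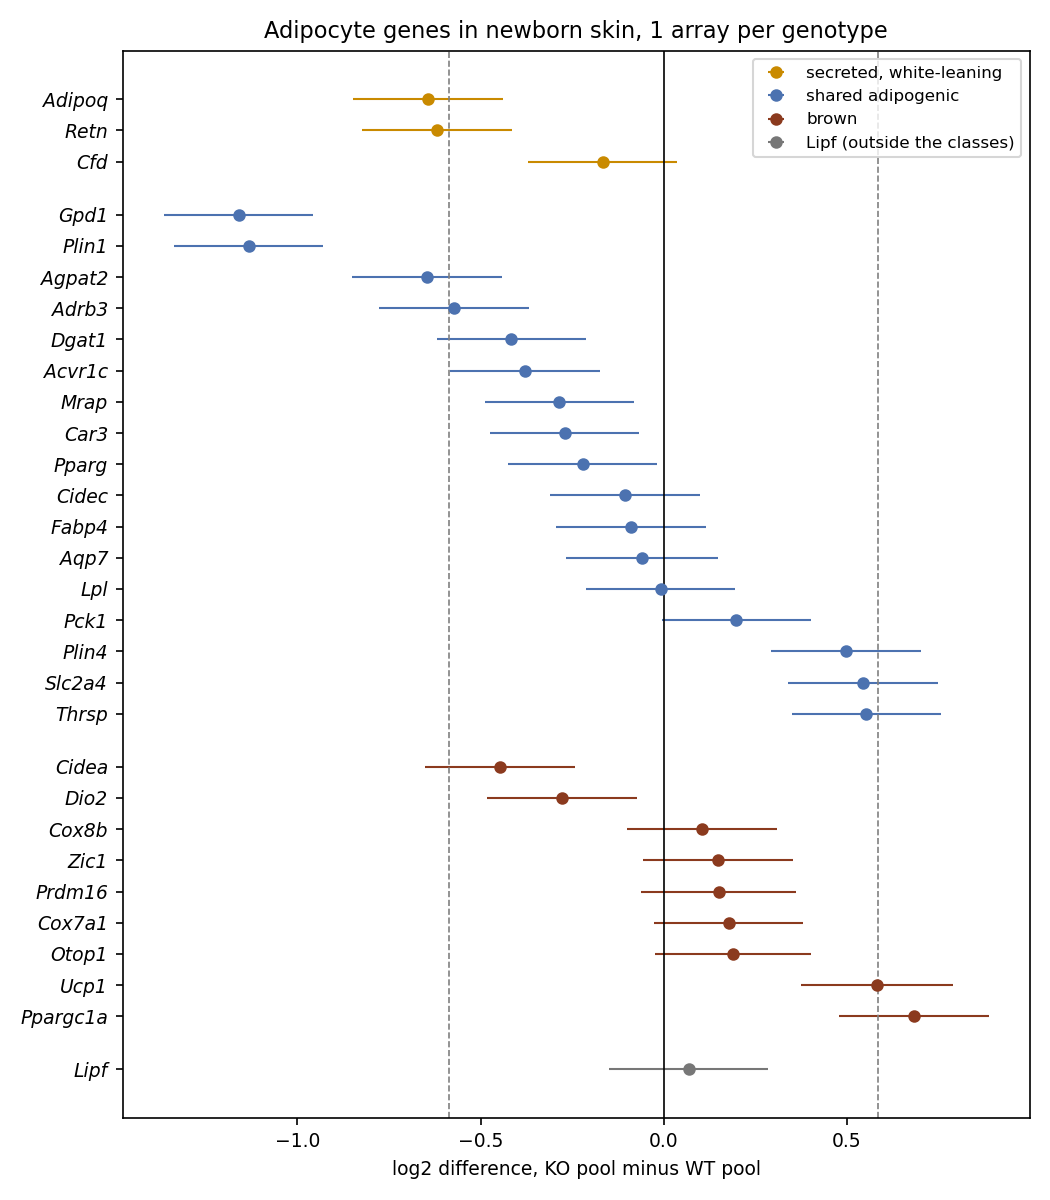
Difference of each of the 30 measured adipocyte genes on the x axis (log2, KO pool minus WT pool), in rows by class, with 1 point per gene and bars of 1 scanner error, which covers spots and not animals. Dashed lines mark 1.5-fold; Gpd1 (-1.16) and Plin1 (-1.13) lie farthest to the left and Ppargc1a (0.68) farthest to the right.

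Of the 3 measured secreted products, Adipoq and Retn were at least 1.5-fold lower in the KO pool. Adipoq, which encodes the hormone adiponectin, read 13561 in the KO pool and 22570 in the WT pool, a difference of -0.64 ± 0.20 (scanner error) or 1.56-fold. Retn, which encodes the adipokine resistin, had probes in different places of the gene. The brighter one read 7387 in the KO pool and 12084 in the WT pool, and the other read 6963 in the KO pool and 10807 in the WT pool. Their differences, -0.62 and -0.54, lay within the scanner error of each other. Cfd, the serine protease adipsin of the complement system, read 52494 in the KO pool and 62780 in the WT pool, at -0.17 less than 1 scanner error from 0. The median of these 3 was -0.62.

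The Adipoq probe and the second Retn probe, which gave -0.54, are shown as examples of what the arrays read for this class; the brighter Retn probe, which gave -0.62, is not. They are 60 bases long and are given 5′ to 3′ as the array files list them, with positions on the mouse assembly mm9.
Adipoq, mm9 chr16:23157576-23157635, plus strand: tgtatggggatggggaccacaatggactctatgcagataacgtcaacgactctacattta
Retn, mm9 chr8:3657312-3657371, plus strand: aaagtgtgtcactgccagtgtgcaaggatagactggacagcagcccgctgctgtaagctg

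Leptin RNA was near the detection limit, and only the signal of the WT pool stood above it. The Lep probe was printed 10 times. In the KO pool its spots, after 3 outliers were left out, read 6.48 at the lowest, 7.16 at the median and 7.83 at the highest, and 0 of the 10 were well above background. In the WT pool, after 2 outliers were left out, they read 21.2 at the lowest, 23.4 at the median and 27.5 at the highest, and 9 of the 10 were well above background. The spots used in the KO pool and those in the WT pool, unscaled, did not overlap. How many other probes with repeated spots part in this way was not counted. Since the KO value is only a bound, Lep, the hormone that reports fat stores to the brain, was at least 2.27-fold lower in the KO pool. That fold sets the WT value against the lowest signal counted as above background on the KO array, 9.84. It leaves out the scanner error, which was 0.53 for the difference of this probe. On the WT array the lowest signal counted as above background was 13.5.

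**Figure D2:**
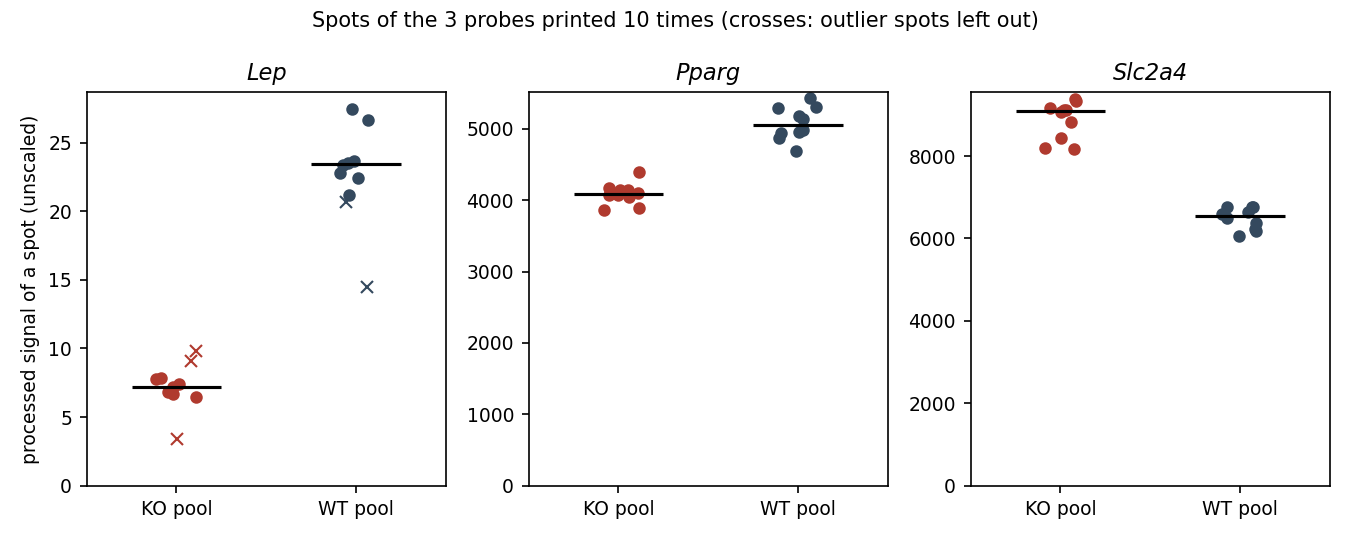
Processed signal of every spot (y axis, unscaled) for the 3 member probes printed 10 times, Lep, Pparg and Slc2a4, with the KO pool left of the WT pool; lines are medians of the spots used and crosses are outlier spots. The KO spots of Lep and Pparg lie below the WT spots and those of Slc2a4 above them, and the spread shown is that of spots within 1 array.

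The adipogenic regulator Pparg was short of 1.5-fold. It encodes the nuclear receptor that drives adipocyte differentiation, and its 10 spots read from 3857 to 4392 with a median of 4088 in the KO pool, against 4692 to 5438 with a median of 5060 in the WT pool. Its unscaled spots did not overlap between the pools, but repeated spots of 1 probe lie so close that small differences part them. Over 334 probes with repeated spots, the SD of the log2 difference between spots was 0.04 at the median. The scaled difference of Pparg was -0.22 ± 0.20 (scanner error). Among 14 further transcription factors of adipogenesis, listed apart from the members, 3 were at least 1.5-fold higher and 0 lower. Over all genes, these shares were 6.73% and 4.49%. Cebpd, an early C/EBP factor of adipogenesis, stood at 1.77, Klf15, a Krüppel-like factor of adipocytes and muscle, at 1.36, and the liver X receptor Nr1h3 at 0.62. Lowest were Srebf1, at -0.21, and Cebpa, at -0.09. The median of these 14 was 0.23.

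Genes of the lipid droplet and of fatty acid handling ranged from 2.19-fold lower to 1.41-fold higher. Plin1, the main perilipin of adipocyte droplets, which guards them from lipolysis, read 2948 in the KO pool and 6886 in the WT pool, a difference of -1.13 ± 0.20 that put it 209th from the lowest of 19397 genes. Plin4, another perilipin, went the other way, with 14846 in the KO pool and 11211 in the WT pool, or 0.50. Neither has a second probe. Cidec, which fuses droplets, read 15023 in the KO pool and 17218 in the WT pool (-0.11), and a second probe gave -0.16. Fabp4, the fatty acid carrier that is among the classical adipocyte markers, read 92741 in the KO pool and 105139 in the WT pool (-0.09). Lpl, the lipase that frees fatty acids from lipoproteins, read 24152 in the KO pool and 25887 in the WT pool, at -0.01, and Aqp7, the glycerol channel, stood at -0.06. With another background correction, normexp, those last 2 lay just above 0, at 0.00 and 0.02. Cidec, Fabp4, Lpl and Aqp7 were thus within 1 scanner error of 0, beside the large differences of Plin1 and Plin4.

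Of the 7 shared metabolic genes, Gpd1 and Agpat2 were at least 1.5-fold lower, and 4 lay below 0 and 3 above. Gpd1, the cytosolic glycerol-3-phosphate dehydrogenase that supplies the glycerol backbone, read 11251 in the KO pool and 26784 in the WT pool, at -1.16 ± 0.20 the lowest of all measured members and 196th from the lowest of 19397 genes. Agpat2, the acyltransferase whose loss causes lipodystrophy, read 7644 in the KO pool and 12749 in the WT pool (-0.65), and its other probe, with 634 in the KO pool and 1091 in the WT pool, gave -0.69. Dgat1, which adds the last acyl chain, read 1153 in the KO pool and 1639 in the WT pool (-0.42), short of 1.5-fold. Car3, a carbonic anhydrase abundant in adipocytes and muscle, stood at -0.27.

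The other metabolic genes of the shared class, Slc2a4, Thrsp and Pck1, lay above 0. Slc2a4, the insulin-regulated glucose transporter GLUT4, had 10 spots that read from 8161 to 9390 with a median of 9094 in the KO pool, against 6072 to 6763 with a median of 6541 in the WT pool. Those unscaled spots did not overlap, with the limit given for Pparg, and the scaled difference was 0.54 ± 0.20 (scanner error). Thrsp, a thyroid hormone-responsive gene that promotes fat synthesis, read 1088 in the KO pool and 790 in the WT pool (0.55). Pck1, the PEPCK of glyceroneogenesis, read 4216 in the KO pool and 3914 in the WT pool (0.20). Pck1 lay within 1 scanner error of 0, and Slc2a4 and Thrsp lay beyond 2.

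All 3 receptor genes of the shared class lay below 0, and 0 of them passed 1.5-fold. Adrb3, the adrenergic receptor through which noradrenaline triggers lipolysis, read 354 in the KO pool and 561 in the WT pool (-0.57), and its other probe, closer to background, gave -0.28. Acvr1c, the activin receptor ALK7 of fat cells, read 1115 in the KO pool and 1544 in the WT pool (-0.38), with -0.46 from a second probe. Mrap, the accessory protein of the ACTH receptor, stood at -0.29. Over the whole shared class, 13 of 17 genes were below 0 and 4 above, and the median was -0.22.

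Of the 9 measured brown genes 7 were above 0, of which 5 lay within 1 scanner error of 0. Ucp1, the uncoupling protein that defines brown fat, gave a dim signal, 245 in the KO pool and 174 in the WT pool, a difference of 0.58 ± 0.21 (scanner error). Ppargc1a, the coactivator of mitochondrial biogenesis, read 1109 in the KO pool and 737 in the WT pool (0.68), and a second probe, with 92.1 in the KO pool and 61.5 in the WT pool, gave 0.67. These were the 2 brown members higher by more than 2 scanner errors. The Ucp1 probe is shown because that single probe carries the value of the marker gene.
Ucp1, mm9 chr8:85821788-85821847, plus strand: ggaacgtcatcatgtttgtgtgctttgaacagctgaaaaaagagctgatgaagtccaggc

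The other brown genes stood lower or near 0. Cidea, a droplet protein of brown adipocytes that sebaceous glands also make, read 6525 in the KO pool and 9471 in the WT pool, at -0.45 the lowest brown member. Dio2, the deiodinase that activates thyroid hormone, read 693 in the KO pool and 895 in the WT pool (-0.28). The cytochrome c oxidase subunits Cox7a1 and Cox8b stood at 0.18 and 0.10, the proton channel Otop1 at 0.19, and the transcription factors Prdm16 and Zic1 at 0.15 each. A second, dimmer Zic1 probe gave 0.00, and a second Otop1 probe was well above background in the KO pool alone. Kng2, which encodes a kininogen, was not well above background on either array, with 8.06 in the KO pool and 3.64 in the WT pool, and has no fold. The median of the 9 was 0.15.

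Set against each other, the classes were ordered brown, shared and white-leaning from highest to lowest median. The brown median was 0.77 above the white-leaning median and 0.37 above the shared median. Of the 9 brown genes, 7 lay above the highest white-leaning gene, Cfd, while Cidea and Dio2 lay within the white-leaning range. The shared class spanned both, with 4 of its 17 genes below the lowest brown gene and 8 above the highest white-leaning one. With Lep and Retn as the only white genes, the white value rested on Retn alone, at -0.62. Where every member except the brown ones and Lipf was counted as white, the median was -0.25, with 5 of 20 at least 1.5-fold lower and 0 higher. Without Cox7a1, Cox8b and Ppargc1a, which muscle also expresses, the brown median was 0.15 over 6 genes, less than 1 scanner error. Their mean was 0.06, against 0.15 over all 9, with 4 above 0, 2 below and 0 past 1.5-fold. These are descriptions of 2 pools, and no test of the class order was possible.

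**Figure D3:**
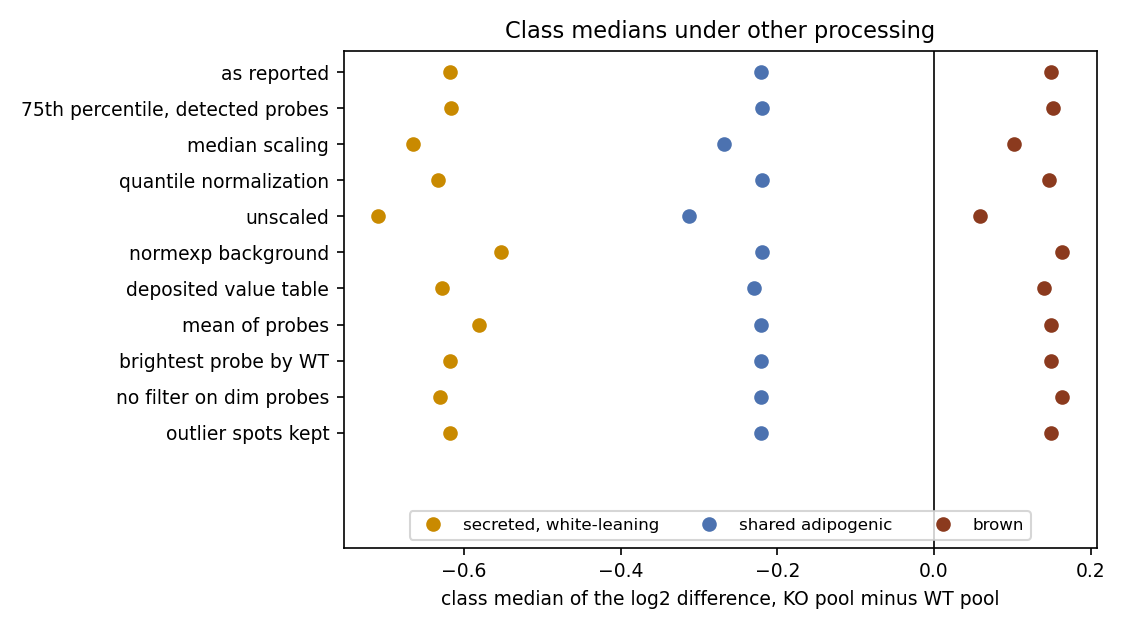
Median difference of each class (x axis, log2, KO pool minus WT pool) as reported and under 10 other ways of processing the arrays, in rows. The white-leaning median ran from -0.71 to -0.55, the shared median from -0.31 to -0.22 and the brown median from 0.06 to 0.16. The order of the classes was the same in every row. Much of this was fixed in advance, since rows that only rescale an array shift all classes alike. Rows on the choice of probe leave members with 1 probe as they were.

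Where a member had a second probe above background on both arrays, the probes mostly gave like values. This held for 8 genes. In 7 the signs were the same, and in Zic1 the dimmer probe gave 0.00. The median gap between the probes was 0.07 and the widest, in Adrb3, was 0.29. The probes of the 30 measured members held 35% to 55% G and C, and across them GC content and difference had a Spearman correlation of -0.02, a description over genes that share the same arrays. Mean signal and difference had a Spearman correlation of -0.38 across the same 30, so brighter members tended to stand lower in the KO pool. Members lie on many chromosomes. Chromosome 8 holds 4 of them, Adrb3, Lpl, Retn and Ucp1, with differences from -0.62 to 0.58.

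Lipolysis genes beyond the members were past 1.5-fold in both directions. Of 18 listed partners in lipolysis and droplet formation, 3 were at least 1.5-fold higher in the KO pool, where 6.73% of all genes were. Lower by that size was 1 of the 18, where 4.49% of all genes were, and the median was 0.10. Pnpla2, the triglyceride lipase ATGL, read 22286 in the KO pool and 13378 in the WT pool (0.83). G0s2, its inhibitor, read 633 in the KO pool and 2434 in the WT pool (-1.85). Plin5, a perilipin of oxidative tissues, stood at 1.20 and Lpin1, a phosphatidate phosphatase, at 1.01, while Mgll, the monoacylglycerol lipase, stood at -0.58. The gene of the lipase ATGL was higher, and those of its inhibitor and of the droplet's guard, Plin1, were lower. The further lipolysis genes Lipe and Abhd5 stood at 0.17 each, within 1 scanner error of 0, and the receptor Adrb3 at -0.57. Whether lipolysis differed was not tested.

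Among genes of fat synthesis beyond the members, a minority passed 1.5-fold. Over all genes, 4.49% were at least 1.5-fold lower and 6.73% higher. Of 10 de novo lipogenesis genes, 3 were at least 1.5-fold lower and 0 higher, with a median of -0.46: the fatty acid synthase Fasn (-0.81), the elongase Elovl6 (-0.75) and the desaturase Scd1 (-0.68). Elovl5 (0.09) and Acacb (0.33) were the 2 above 0. Sebaceous glands and keratinocytes express these genes too. Of 12 sebaceous gland markers, Elovl3, Soat1 and Awat2 were the 3 at least 1.5-fold lower and Mogat2 the 1 higher, with a median of -0.12 and a summed scaled level of 65.4 in the KO pool and 72.5 in the WT pool. Their part in the lipogenic and Cidea values was not tested. Of 10 genes for fatty acid and glucose uptake, Irs2, the insulin receptor substrate, was the 1 at least 1.5-fold higher, at 0.99, and 0 were lower. The insulin receptor Insr followed at 0.51, Cd36, the fatty acid translocase, stood at -0.11, and the median was 0.19.

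Some other markers of fat cells were past 1.5-fold in each direction, and those of their precursors in neither. Over all genes, 6.73% were higher by that size, 4.49% lower and 11.2% either. With 16 and 10 genes, these lists are too short to be set apart by such counts. Of 16 further adipocyte markers, Ffar2, a receptor for short fatty acids (-1.01), and Adig, which encodes adipogenin (-0.83), were the 2 at least 1.5-fold lower. Itih4 (1.46) and Orm1 (0.65) were the 2 higher, both also acute phase genes, and the median was 0.11. Of 21 further brown fat genes, 3 were higher, Lhx8 (1.38, from a dim probe), the fatty acid receptor Ppara (1.21) and the orphan receptor Esrrg (0.87). The Esrrg probe was dimmer still, with 64.0 in the KO pool and 37.2 in the WT pool and a scanner error of 0.25. Elovl3, an elongase that brown fat and sebaceous glands share, was the 1 lower at -1.13, and the median was 0.13. Of 10 preadipocyte and stromal genes, 0 were past 1.5-fold, 8 lay above 0, where 51.8% of all genes did, and 2 below. Their median was 0.32. Ly6a, the stem cell antigen Sca-1, was highest among them at 0.56, and the preadipocyte factor Dlk1 stood at 0.38.

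**Figure D4:**
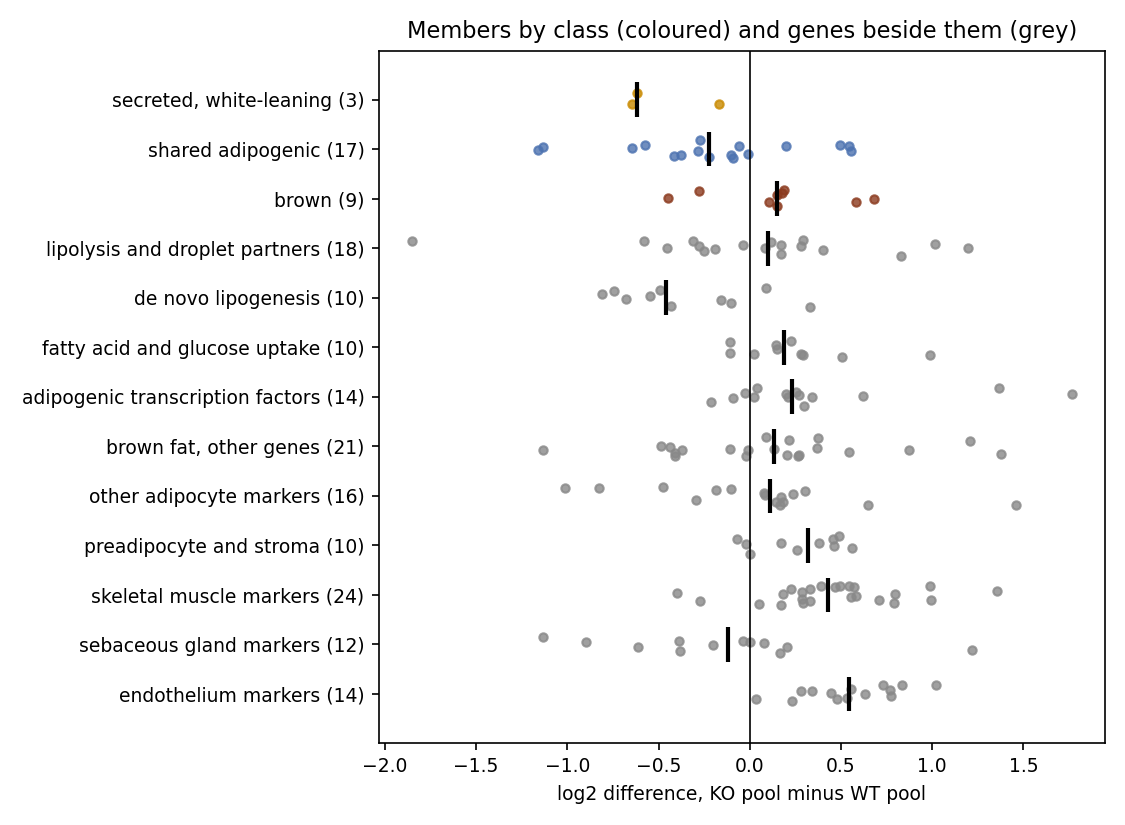
Difference of each measured gene (x axis, log2, KO pool minus WT pool), with the member classes in colour and 10 lists of neighbouring pathways and cell types in grey; the number of genes stands in brackets and black lines are medians. De novo lipogenesis genes (median -0.46) lie left of 0, and skeletal muscle (0.43) and endothelium (0.55) markers lie right of it.

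Skeletal muscle, a thin sheet of which lies in mouse skin, expresses several members. Of 24 muscle markers, 22 were above 0 in the KO pool, 6 at least 1.5-fold higher and 0 lower, with a median of 0.43. Over all genes, 6.73% were higher by that size, 4.49% were lower and 51.8% lay above 0. The troponin gene Tnni1 (1.36) was highest, and the myosin gene Myh2 (-0.40) and the myoglobin gene Mb (-0.27) were lowest. Their summed scaled level was 694 in the KO pool and 552 in the WT pool. Muscle also makes Slc2a4, Ppargc1a, Cox7a1, Cox8b, Plin4 and Car3, and all of these but Car3 were above 0. They are examples and not all members that muscle makes, so their directions are no result about such members. The part of muscle RNA in their values was not tested. Endothelial cells make Fabp4 and Aqp7, and all 14 endothelial markers were above 0, with a median of 0.55 and a summed scaled level of 29.2 in the KO pool and 21.7 in the WT pool. Fabp4 and Aqp7 stood at -0.09 and -0.06 beside them. Macrophages also express Fabp4 and Lpl, and of 12 macrophage markers 10 were above 0 and 1, Cd163, at least 1.5-fold higher, with a median of 0.27 and a summed scaled level of 30.3 in the KO pool and 27.1 in the WT pool.

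Lipf, listed with the adipocyte genes, read 66.7 in the KO pool and 67.7 in the WT pool, at 0.07 within 1 scanner error of 0 and at -0.02 without scaling. Other genes of the stomach were not alike in the pools. Tff1, a trefoil peptide of gastric mucus, read 1350 in the KO pool and 73.0 in the WT pool, 19.7-fold higher in the KO pool, and the gastrokine Gkn2 read 446 in the KO pool and 17.5 in the WT pool, 27.6-fold higher. Among the 5 of 9 stomach genes measured on both arrays, these 2 were the ones past 1.5-fold, where 11.2% of all genes were. The lowest were Muc5ac (-0.07) and Pgc (-0.05). The others, Cblif, Tff2, Atp4a and Atp4b, were well above background in the KO pool alone, at least 3.49-fold, 5.16-fold, 1.20-fold and 4.74-fold higher there.

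Promoter sequences were at hand for 23 of the 32 members, as 28 windows of the 250 bases before the start of a transcript, from RefSeq on assembly GRCm38.p6. Shown are the windows of every member that had one and lay more than 2 scanner errors from 0, 4 lower in the KO pool and 4 higher, and that of Lep, which was lower by its bound. The windows are given 5′ to 3′ on the gene's strand, and capitals mark letters that match 1 of the 8 motifs searched on both strands. The lower genes come first.
Plin1, chr7:79732777-79733026, minus strand: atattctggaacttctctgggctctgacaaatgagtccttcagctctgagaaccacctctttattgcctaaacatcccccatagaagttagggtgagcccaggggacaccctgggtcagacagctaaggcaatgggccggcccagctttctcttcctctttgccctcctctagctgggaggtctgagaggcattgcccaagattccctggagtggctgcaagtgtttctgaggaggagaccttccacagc
Adipoq, chr16:23146286-23146535, plus strand: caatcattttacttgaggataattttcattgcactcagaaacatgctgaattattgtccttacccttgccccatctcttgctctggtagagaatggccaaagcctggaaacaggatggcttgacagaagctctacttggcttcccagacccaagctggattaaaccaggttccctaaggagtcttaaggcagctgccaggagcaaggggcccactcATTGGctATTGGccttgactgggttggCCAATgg
Agpat2, chr2:26604418-26604667, minus strand: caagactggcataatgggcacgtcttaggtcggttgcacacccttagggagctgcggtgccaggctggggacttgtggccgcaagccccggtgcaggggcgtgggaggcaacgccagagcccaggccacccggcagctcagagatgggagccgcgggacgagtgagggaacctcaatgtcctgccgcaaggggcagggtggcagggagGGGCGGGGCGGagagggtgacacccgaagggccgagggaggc
Retn, chr8:3655520-3655769, plus strand: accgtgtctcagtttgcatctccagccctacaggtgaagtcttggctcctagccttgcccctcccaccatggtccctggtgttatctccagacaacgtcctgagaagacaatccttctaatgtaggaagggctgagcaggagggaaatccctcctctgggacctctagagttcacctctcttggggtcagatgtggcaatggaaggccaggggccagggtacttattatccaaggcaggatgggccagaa
Lep, chr6:29059971-29060220, plus strand: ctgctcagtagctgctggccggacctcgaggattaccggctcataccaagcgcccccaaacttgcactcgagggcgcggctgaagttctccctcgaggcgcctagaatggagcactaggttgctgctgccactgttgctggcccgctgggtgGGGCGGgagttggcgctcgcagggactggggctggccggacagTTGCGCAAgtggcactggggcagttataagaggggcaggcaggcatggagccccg
The 4 higher genes follow.
Plin4, chr17:56109783-56110032, minus strand: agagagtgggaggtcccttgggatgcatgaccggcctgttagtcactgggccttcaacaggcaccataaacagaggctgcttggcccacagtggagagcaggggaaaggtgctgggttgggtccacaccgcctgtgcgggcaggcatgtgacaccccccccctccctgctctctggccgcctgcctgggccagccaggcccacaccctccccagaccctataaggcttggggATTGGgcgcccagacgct
Thrsp, chr7:97417551-97417800, minus strand: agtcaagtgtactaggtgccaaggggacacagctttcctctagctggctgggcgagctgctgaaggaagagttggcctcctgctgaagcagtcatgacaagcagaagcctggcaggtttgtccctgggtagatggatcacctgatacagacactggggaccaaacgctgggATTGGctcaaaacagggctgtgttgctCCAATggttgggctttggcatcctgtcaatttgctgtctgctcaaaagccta
Ucp1, chr8:83290098-83290347, plus strand: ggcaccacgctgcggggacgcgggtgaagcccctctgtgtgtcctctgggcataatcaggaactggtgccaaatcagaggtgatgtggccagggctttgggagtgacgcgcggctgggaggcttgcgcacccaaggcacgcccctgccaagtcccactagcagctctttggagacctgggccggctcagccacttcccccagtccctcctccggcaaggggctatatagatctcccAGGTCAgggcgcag
Ppargc1a, chr5:51567726-51567975, minus strand: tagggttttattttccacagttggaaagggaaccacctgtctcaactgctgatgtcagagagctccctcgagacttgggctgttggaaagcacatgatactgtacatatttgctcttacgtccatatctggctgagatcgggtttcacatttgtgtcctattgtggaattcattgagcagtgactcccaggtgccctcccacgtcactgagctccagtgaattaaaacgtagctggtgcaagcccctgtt

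Genes of both directions held the commoner motifs. The CCAAT box, CCAAT, was found in 33.8% of all 32851 windows and in 9 of the 28 member windows, among them Adipoq, with 3 matches in the last 34 bases before the start, and Plin4 and Thrsp. The nuclear receptor half-site AGGTCA was in 14.0% of all windows and in 6 of 28, among them Ucp1, where it lies 14 bases before the start. A full PPAR-type repeat, made of that half-site, any base and the half-site again, was in 0.0335% of all windows and in 0 of 28. The C/EBP palindrome TTGCGCAA was in 0.164% of all windows and in Lep alone among the members, 55 bases before the start. TATAAA was in 12.4% and 2 of 28, GGGCGG in 32.7% and 9 of 28, among them Agpat2 and Lep, CACGTG in 6.02% and 1 of 28, and ACANNNTGT in 5.84% and 0 of 28. No motif was matched in the windows of Plin1, Retn and Ppargc1a. A match is a run of letters and not a bound site.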

How the data were processed

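RNA of newborn skin was read on 1 Agilent 1-colour array per genotype, design 026655. Per the labels' protocols, 200 ng of total RNA per pool was amplified and labelled with Cy3. Agilent Feature Extraction 11.5.1.1, named in the submitters' processing notes, turned the scans into values under protocol GE1_1105_Oct12 and with mm9 positions, per the file headers. In the deposited scanner files each spot has an intensity, already background-subtracted and spatially detrended, with its error. The deposited value table is a ratio, which equalled that intensity divided by 2273 on the KO array and 2406 on the WT array, and its column medians were 0.0969 for KO and 0.0946 for WT.

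Here, log2 intensities were averaged over the spots of a probe and reduced by the array's 75th percentile over 39422 probes. Control spots and outlier spots (135 on the KO array, 163 on the WT array) were left out, and 0 spots were saturated. For each gene the brightest probe that was well above background on both arrays was used (for a probe with repeated spots, in a share of at least 0.5 of them). Of the probes, 28330 were named by accession, 2204 by symbol and 174 by synonym in a RefSeq table of GRCm38.p6, 1767 kept the file's name and 6954 had none. With 1 array per group no p-value exists, and a gene was counted past 1.5-fold or 2-fold. Where a probe was above background on 1 array only, the fold is a bound, except for Atp4a, where it is the observed ratio. The scaled level of a list is the sum of its genes' levels in units of the array's 75th percentile. The calculation was tested on simulated data. The members, the lists and the classes were chosen with earlier results of these data known. Every member was named. Of other lists, genes could be named if among the 2 highest or 2 lowest or if they spell out a small count, and not all of these were. Named outside this rule were Lipe, Abhd5 and Dlk1, and Dlk1 was added after its value was seen. Normexp used limma 3.58.1 with an offset of 50.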

Additional observations from a re-analysis of the deposited data

How the results depend on the processing

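All differences of the 30 measured members were recomputed under 10 other settings, 300 values in all. Of these, 300 moved by less than 0.20, the median scanner error, and 0 members past 1.5-fold changed sign. Much of this was fixed in advance. Settings that only rescale an array move every member by the same amount. Settings on the choice of probe leave members with 1 probe, 23 of the 32, as they were. The number of members at least 1.5-fold lower ran from 4 to 6: Retn left the count under normexp and under the mean of a gene's probes, and Adrb3 or Lep joined it under median scaling, quantile normalization, no scaling or no filter. Without the filter on dim probes, 2 members were at least 1.5-fold higher and 1 at least 2-fold higher, since Kng2 then had a value, and among members above the median signal 0 were at least 1.5-fold higher, since Ppargc1a lies below it. Over all genes, normexp left 2.18% at least 1.5-fold lower and 4.41% higher, against 4.49% and 6.73% as reported. The white-leaning median moved to -0.25 when every member outside the brown class and Lipf was counted as white. Each genotype is 1 array of pooled RNA on the same slide, so animals, slide position, sex and genotype cannot be told apart. Signals near background, such as Lep, Kng2 and the dim probes of Otop1 and Adrb3, limit what can be read. No paired analysis was possible because each genotype has 1 array.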

Other observations

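Markers of 3 further tissues or cell types were read beside the adipocyte genes. Of 11 fibroblast genes 8 were above 0, where 51.8% of all genes were, and 3 below, with a median of 0.10. Their summed scaled level was 394 in the KO pool and 370 in the WT pool, and Pdgfra (0.49) was highest and Lum (-0.23) lowest. Keratinocyte genes had a median of 0.11, and Ivl, at 0.63, was the 1 past 1.5-fold, where 11.2% of all genes were. Liver genes were measured on both arrays for 4 of 8, with Alb at 0.51 and Serpina1a at -0.36. Apoa1, Ttr, Fgb and Hnf4a were not well above background on either array.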
